A study of Mus musculus with 12 samples.

Results

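Expression of 9 inflammasome and pyroptosis genes was followed in bone marrow-derived dendritic cells (BMDCs) of the mouse. The genes were taken by symbol and not by a cut on measured values, although earlier results of these data were known at the choice. They comprise the sensors Nlrp3, Nlrp1b, Nlrc4 and Aim2, the adaptor Pycard, the caspases Casp1 and Casp4, the pore-forming protein Gsdmd and the Nlrp3 partner Nek7. All 9 were present among the 55335 genes listed per library, and all 9 were among the 14357 genes that passed the filter on low counts. The study asked how NF-κB and the genome organizer CTCF shape the dendritic cell response to lipopolysaccharide (LPS), a component of the Gram-negative outer membrane. RNA-seq was available for 12 libraries in 4 groups of 3. WT cells were unstimulated, WTL cells received 100 ng/ml LPS for 3 h, WT + JSH23 cells received 100 µM JSH-23 for 3 h, and WTL + JSH23 cells received JSH-23 followed by LPS. JSH-23 is a small molecule that keeps the NF-κB subunit RelA out of the nucleus.

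Each of these groups was of C57BL/6 background and CreER genotype, a tamoxifen-inducible Cre that the methods of the study place at the Rosa26 locus, with Ctcf intact. Bone marrow of adult mice of both sexes, by those methods, was grown with GM-CSF for 6 days, with fresh medium every 2 days. Floating CD11c+ cells were then taken by bead selection, by the same methods. CD11c is also carried by macrophage-like cells that GM-CSF cultures can hold. The labels give no age, no solvent control and no tamoxifen treatment for these 12 libraries. WT and WTL libraries carry the replicate numbers 4 to 6 and both JSH-23 groups 1 to 3, so that any difference between these sets of cultures cannot be told apart from the effect of JSH-23. Whether replicates were separate mice or cultures is not stated in the labels, and p-values describe the spread between these libraries.

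Inflammasomes are cytosolic complexes in which a sensor of danger or microbial products recruits, usually through the adaptor ASC (encoded by Pycard), the protease caspase-1. Active caspase-1 matures interleukin-1β and interleukin-18 and cleaves gasdermin D (Gsdmd), whose released fragment forms pores in the plasma membrane and causes the lytic death called pyroptosis. In the non-canonical route, caspase-11, the product of mouse Casp4, binds intracellular LPS and cleaves gasdermin D itself. LPS outside the cell is known as the priming signal that raises Nlrp3 and Il1b through NF-κB, whereas assembly of the complex needs a further trigger, and the labels name none for these cultures.

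On mouse build mm10 (GRCm38), with positions from GENCODE, Nlrp3 lies on the plus strand of chromosome 11 at 59541568 to 59566956, and Nlrp1b on the minus strand of the same chromosome at 71153102 to 71230733. Nlrc4 spans 74425438 to 74459142 on chromosome 17 (minus) and Aim2 173350879 to 173466040 on chromosome 1 (plus). Pycard lies at 127989708 to 127993867 on chromosome 7 (minus), Gsdmd at 75862327 to 75867408 on chromosome 15 (plus) and Nek7 at 138482875 to 138620141 on chromosome 1 (minus). Casp1 (5298517 to 5307265) and Casp4 (5308828 to 5336783) are direct neighbours on the plus strand of chromosome 9. Aim2 overlaps the protein-coding Cadm3 on the opposite strand. Pycard had fractional counts in 11 libraries, which means that RSEM divided some of its reads with another gene, and overlaps Gm45205 on the opposite strand. Nlrc4 and Nek7 each overlap unnamed transcripts on their own strand. Nlrp1b has a close paralog, Nlrp1a. Labels and methods name different library kits, so that whether counting used the strand is not settled, and values of these genes could hold reads of their partners.

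Library totals ran from 24664724 to 34837847 expected counts. The 9 listed dendritic cell markers, Itgax, H2-Ab1 and Cd74 among them, were expressed in every group, with summed levels of 17676 to 19919 TPM. Most of this sum was Cd74 (group means 12594 to 14122 TPM) and H2-Ab1 (3279.5 to 3896.8 TPM). Flt3 had group means of 2.42 to 3.20 TPM and Zbtb46 of 23.5 to 43.5 TPM. Sums of different marker lists do not give shares of cells. Summed macrophage and monocyte markers reached 1385 to 2366 TPM, and summed neutrophil markers 177 to 233 TPM. T cell, B cell, mast cell and erythroid marker lists each summed to less than 6 TPM in every library, and in each group Hba-a1 was listed at 0 in all 3 libraries. CPM below are counts scaled to a common library total after TMM normalisation and serve to compare one gene between groups. TPM is per transcript length and serves to compare genes. Expression changes are log2 fold changes with their standard error (SE), and passing means an adjusted p under 0.05 in edgeR's quasi-likelihood test.

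LPS moved individual genes of the set strongly and in both directions, whereas JSH-23 lowered nearly all of them by a moderate amount. In WTL against WT, Nlrp3, Casp4 and Nlrc4 were upregulated (3 of 9, where 31.0% of all genes tested were higher), and Nlrp1b, Nek7 and Pycard were downregulated (3 of 9, against 34.7% of all genes). Above 2-fold, 1 gene was higher, Nlrp3 (7.36% of all genes), and 1 lower, Nlrp1b (9.09%). In WTL + JSH23 against WT + JSH23, 4 of 9 were higher (27.4% of all genes), Casp1 being the additional one, and Nlrp1b, Nek7 and Pycard, 3 of 9, were lower (27.1% of all genes). Nlrp3 and Nlrp1b were again above 2-fold, where 5.85% of all genes were higher and 4.49% lower by that much. JSH-23 without LPS lowered 9 of 9 and raised 0, while 22.1% of all genes were lower and 18.8% higher. With LPS, JSH-23 lowered 7 of 9 and raised 0, while 24.2% of all genes were lower and 24.5% higher. Of the JSH-23 changes 0 exceeded 2-fold, which 2.43% of all genes did upward and 2.94% downward without LPS, and 3.75% and 3.25% with LPS. These comparisons share libraries and are not independent of each other.

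**Figure D1:**
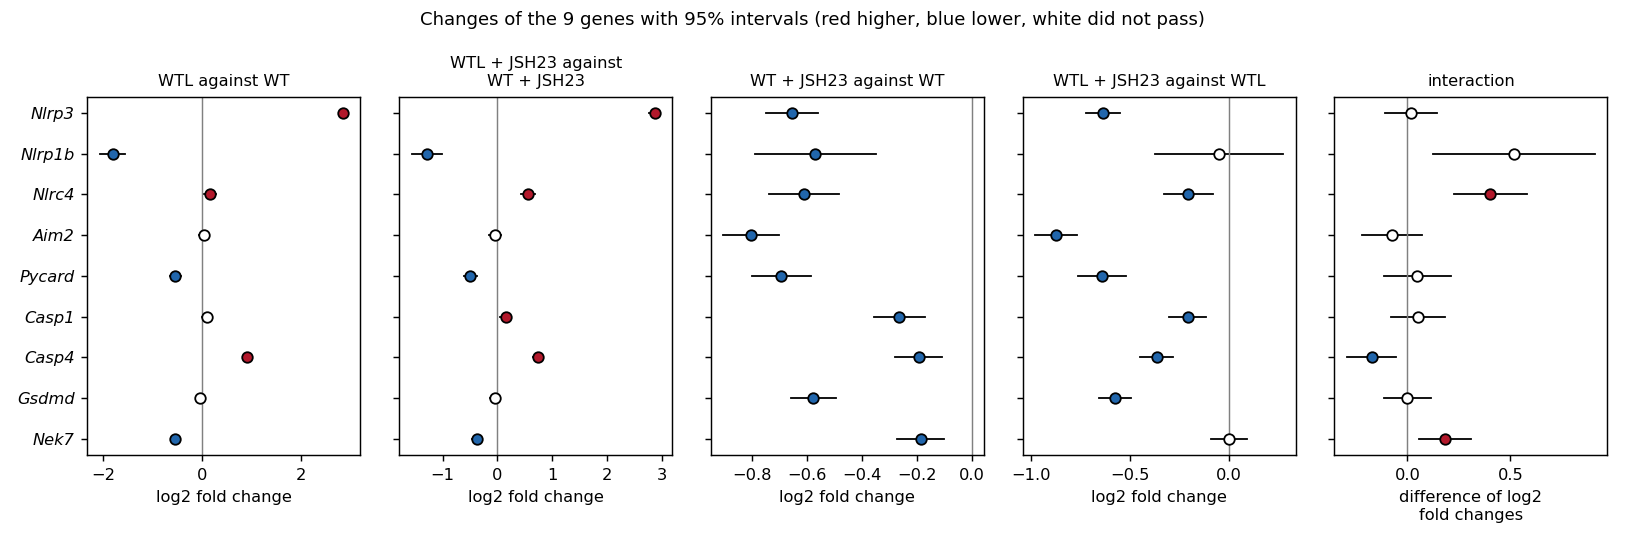
Log2 fold change (horizontal axis) of each of the 9 genes in the 4 comparisons and in the interaction, with 95% intervals as lines; each panel has its own horizontal scale. LPS changes (both panels on the left) spread from -1.81 to 2.87, whereas all 9 values for WT + JSH23 against WT (middle panel) lie below 0.

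The median change of the 9 genes was 0.03 for LPS without JSH-23 (-0.05 over all genes tested) and -0.05 for LPS with JSH-23 (-0.02 over all genes). For JSH-23 it was -0.58 without LPS (-0.01 over all genes) and -0.37 with LPS (0.02 over all genes). In bulk RNA a lower level of a gene can mean fewer cells expressing it or less RNA per cell, and these cannot be told apart. Without LPS all 9 JSH-23 calls held in each of the 21 other fits. Scaling mattered for the small LPS changes. The TPM scale fixes the sum of each library and has no TMM factor. On it the median of all genes moved to -0.30 for LPS without JSH-23, to -0.18 with JSH-23, and to 0.12 for JSH-23 with LPS. The share of higher genes among those called by LPS was 47.2% with TMM scaling and 19.6% with TPM, and with JSH-23 it was 50.3% against 24.7% with TPM and 37.7% with upper quartile scaling. For JSH-23 with LPS it was 50.3% against 68.6% with TPM.

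**Figure D2:**
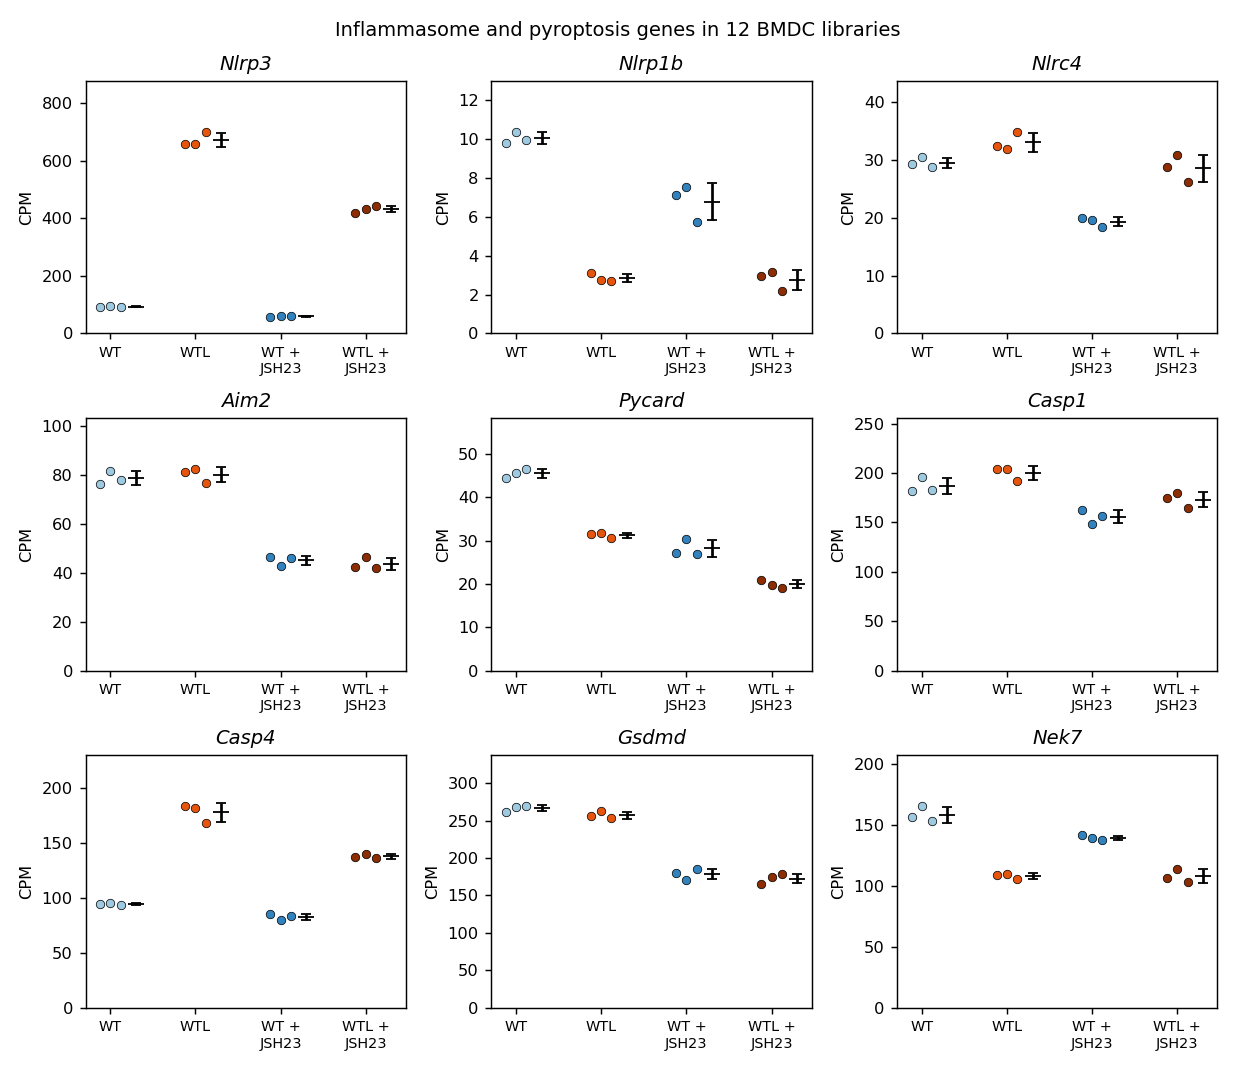
CPM (vertical axis, linear from 0) of each gene in the 12 libraries; points are libraries, and the bar beside them gives mean and SD of 3 libraries per group. Nlrp3 and Casp4 stand high in both LPS groups, and Aim2 and Gsdmd stand low in both JSH-23 groups.

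Nlrp3, the sensor of potassium efflux and membrane damage, had the largest LPS response of the 9. Its levels were 93.2, 93.9 and 91.6 CPM in WT, and 657, 660 and 702 CPM in WTL. With JSH-23 they were 55.5, 59.9 and 61.9 CPM without LPS and 420, 434 and 444 CPM with LPS. No library of any group overlapped another group, in the order WTL, WTL + JSH23, WT, WT + JSH23. The LPS change was 2.86 ± 0.04 (7.24-fold, adjusted p = 4.88e-22) without JSH-23 and 2.87 ± 0.05 (7.32-fold, adjusted p = 2.02e-21) with it. JSH-23 lowered Nlrp3 by nearly the same factor without LPS (log2 fold change -0.65 ± 0.04, adjusted p = 1.11e-10) and with LPS (-0.64 ± 0.04, adjusted p = 2.27e-11). The interaction, the LPS change with JSH-23 minus that without, was 0.02 with a 95% interval of -0.11 to 0.14 (adjusted p = 0.896). On the linear scale the LPS rise was 580 CPM without JSH-23 (563 to 610 over all pairs of libraries) and 373 CPM with it (358 to 388).

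The bases before the Nlrp3 start site are shown because Nlrp3 and Casp4 had the largest LPS rises of the set and NF-κB acts through κB sites. Among the 8 of the 9 genes with a RefSeq promoter window (GRCm38.p6), a match on either strand to the degenerate 10-base κB consensus was found within 250 bases upstream for 2, Nlrp3 and Casp4. These 8 genes have 11 windows, of which 3 held a match, including both of the 2 overlapping Casp4 windows. Of all 32851 windows in the table, 3.90% held such a match. The motif was chosen after it was known which genes rose. Nlrp3 has 2 windows, and the one that starts at 59542436 held no match. The Nlrp3 window with a match covers chr11:59541319-59541568 (plus strand, 5′ to 3′), with the match in capitals, 186 to 177 bases before the start site.
Nlrp3 upstream: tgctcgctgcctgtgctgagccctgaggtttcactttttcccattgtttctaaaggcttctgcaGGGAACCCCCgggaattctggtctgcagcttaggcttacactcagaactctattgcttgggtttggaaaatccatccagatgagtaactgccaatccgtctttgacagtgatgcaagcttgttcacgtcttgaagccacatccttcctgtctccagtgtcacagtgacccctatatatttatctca
A match is a description of letters and not evidence of binding. A looser κB pattern, 3 G, 5 free bases and 2 C, was present upstream of 4 of the 8 genes (Nlrp3, Casp4, Casp1 and Nek7) and in 45.8% of all windows, and it overlaps the κB matches. A pair of GAAA blocks separated by 2 free bases, TTCNNNGAA and TGANTCA, searched on both strands, had no match upstream of the 8 genes and were present in 2.98%, 7.02% and 6.75% of all windows.

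Nlrp1b, a sensor activated by proteolytic cleavage, moved opposite to Nlrp3 with LPS, while JSH-23 without LPS lowered both. It measured 9.82, 10.4 and 9.93 CPM in WT and 3.10, 2.77 and 2.72 CPM in WTL. With JSH-23 it measured 7.10, 7.52 and 5.72 CPM without LPS and 2.94, 3.14 and 2.16 CPM with LPS. Thus both LPS groups lay below both unstimulated groups, and WTL and WTL + JSH23 overlapped. LPS lowered Nlrp1b by 3.51-fold without JSH-23 (log2 fold change -1.81 ± 0.12, adjusted p = 3.70e-11) and by 2.45-fold with it (-1.29 ± 0.13, adjusted p = 3.81e-08). The interaction of 0.52 (95% interval 0.13 to 0.91) did not pass (adjusted p = 0.0615). JSH-23 lowered Nlrp1b without LPS (-0.57 ± 0.11, adjusted p = 0.000158), and with LPS the value was -0.05 (95% interval -0.37 to 0.27, adjusted p = 0.820). Nlrp1b was the rarest of the 9, at 50 to 365 counts per library, and its paralog Nlrp1a also fell with LPS, by 0.94 on the log2 scale.

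Nlrc4, which joins NAIP proteins that bind flagellin and bacterial secretion needles, was the one sensor among the members whose interaction of LPS and JSH-23 passed. In the wider list of sensors, the interactions of Naip1 (0.73), Naip2 (0.18) and Zbp1 (-0.24) passed as well. Levels of Nlrc4 were 29.2, 30.5 and 28.7 CPM in WT, 32.4, 31.8 and 34.9 CPM in WTL, 19.9, 19.6 and 18.4 CPM in WT + JSH23, and 28.7, 30.8 and 26.2 CPM in WTL + JSH23. All 3 WT + JSH23 libraries were lowest, and WTL + JSH23 overlapped WT. The LPS change was 0.56 ± 0.06 with JSH-23 (adjusted p = 1.17e-07) and 0.16 ± 0.06 without (adjusted p = 0.0188). The interaction was 0.40 ± 0.09 (adjusted p = 0.00225) and passed in each of the 21 other fits, with values from 0.35 to 0.46. JSH-23 lowered Nlrc4 by 0.61 ± 0.06 without LPS (adjusted p = 3.89e-08) and by 0.21 ± 0.06 with LPS (adjusted p = 0.00679). The small LPS rise without JSH-23 did not pass without WT replicate 4 (adjusted p = 0.0529), WT replicate 6 (0.0682) or WTL replicate 6 (0.0937), or with upper quartile scaling (0.236), and was -0.10 on the TPM scale, where all genes had a median of -0.30.

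Aim2, the sensor of cytosolic double-stranded DNA, had the largest JSH-23 change of the set, and its LPS changes did not pass with TMM scaling. It measured 76.5, 81.8 and 78.1 CPM in WT and 81.3, 82.7 and 76.7 CPM in WTL. With JSH-23 these levels were 46.4, 43.0 and 46.1 CPM without LPS and 42.6, 46.5 and 42.1 CPM with LPS. The JSH-23 libraries all lay below the others, and within each pair LPS and no LPS overlapped. JSH-23 lowered Aim2 by 1.74-fold without LPS (-0.80 ± 0.05, adjusted p = 1.80e-11) and by 1.84-fold with LPS (-0.88 ± 0.05, adjusted p = 5.03e-12). The LPS change was 0.03 (95% interval -0.07 to 0.13, adjusted p = 0.636) without JSH-23 and -0.05 (-0.16 to 0.06, adjusted p = 0.451) with it. On the TPM scale the former was -0.40 (adjusted p = 0.000206 in limma) and the latter -0.28 (adjusted p = 0.00341), each -0.10 relative to the median of all genes. With upper quartile scaling the latter was -0.13 (adjusted p = 0.0342).

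Since LPS raised Nlrp3 while the LPS changes of Aim2 did not pass with TMM scaling, the 4 sensors were summed in TPM per library. The sum was 194 ± 8.29 TPM in WT and 353 ± 5.42 in WTL, and with JSH-23 107 ± 1.94 and 231 ± 4.58 TPM (SD, n = 3). Aim2 made up 70.0% ± 1.38 of it in WT and 66.3% ± 1.97 in WT + JSH23, whereas Nlrp3 made up 67.5% ± 2.50 in WTL and 70.4% ± 1.40 in WTL + JSH23. Nlrc4 held 5.74% in WT and 2.92% in WTL, and Nlrp1b 2.13% and 0.268%. Thus, of these 4 sensor transcripts, Aim2 was the most abundant in all 6 unstimulated libraries and Nlrp3 in all 6 LPS libraries, with or without JSH-23. These shares are ratios within a library and do not depend on scaling between libraries. Zbp1, from the wider list of sensors and outside this sum, had higher means than either. They were 452 TPM in WT, 447 in WTL, 361 in WT + JSH23 and 326 in WTL + JSH23.

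**Figure D3:**
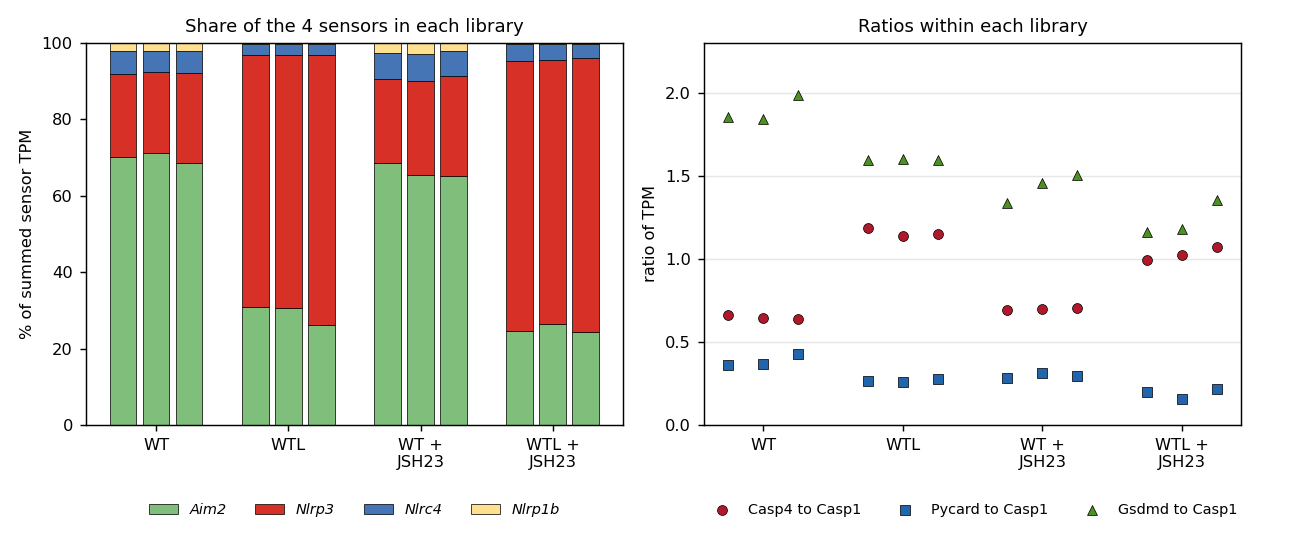
Left, share (%) of each sensor in the summed TPM of the 4 sensors, with 1 bar per library; right, ratio of the TPM of Casp4, Pycard and Gsdmd to that of Casp1, with 1 point per library. Nlrp3 takes 21.1% to 26.2% of the sum in the 6 libraries without LPS and 65.9% to 71.8% in the 6 with LPS.

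Pycard encodes ASC, through which most sensors reach caspase-1. Its levels were 44.5, 45.5 and 46.6 CPM in WT, 31.5, 31.6 and 30.5 CPM in WTL, 27.2, 30.5 and 27.0 CPM in WT + JSH23, and 20.9, 19.8 and 19.1 CPM in WTL + JSH23. All WT libraries lay above, and all WTL + JSH23 libraries below, those of every other group. WTL and WT + JSH23 lay next to each other without overlap, separated by less than 0.1 CPM. LPS lowered Pycard by 0.54 ± 0.05 without JSH-23 (adjusted p = 8.22e-09) and by 0.50 ± 0.06 with it (adjusted p = 2.63e-07). JSH-23 lowered it by 0.69 ± 0.05 without LPS (adjusted p = 4.37e-10) and by 0.64 ± 0.06 with LPS (adjusted p = 6.29e-09). The interaction was 0.05 (95% interval -0.11 to 0.21, adjusted p = 0.736).

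Casp1 and Casp4 lie side by side, and their LPS values lay apart, although the difference between both genes was not tested. Casp1, the inflammatory protease of the canonical route, had 182, 196 and 183 CPM in WT, 205, 204 and 192 CPM in WTL, 162, 149 and 157 CPM in WT + JSH23, and 175, 180 and 165 CPM in WTL + JSH23. WT and WTL overlapped, and the JSH-23 libraries lay lower. The LPS change of Casp1 was 0.10 (95% interval 0.01 to 0.19, adjusted p = 0.0579) without JSH-23 and 0.15 ± 0.05 with it (adjusted p = 0.00767), and on the TPM scale -0.23 and -0.07, which are 0.07 and 0.12 above the median of all genes. With WT + JSH23 replicate 2 left out, the latter rise had an adjusted p of 0.0525, and with upper quartile scaling 0.227. JSH-23 lowered Casp1 by 0.26 ± 0.04 without LPS (adjusted p = 5.64e-05) and by 0.21 ± 0.04 with LPS (adjusted p = 0.000527).

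Casp4 had 94.8, 95.1 and 94.0 CPM in WT and 184, 182 and 168 CPM in WTL. With JSH-23 it had 85.1, 79.7 and 83.7 CPM without LPS and 138, 140.5 and 136 CPM with LPS. The 4 groups did not overlap and stood in the same order as for Nlrp3. LPS raised Casp4 by 0.91 ± 0.04 (1.88-fold, adjusted p = 2.17e-14) without JSH-23 and by 0.74 ± 0.04 (1.67-fold, adjusted p = 1.99e-12) with it. JSH-23 lowered it by 0.19 ± 0.04 without LPS (adjusted p = 0.000716) and by 0.37 ± 0.04 with LPS (adjusted p = 1.25e-07). The interaction was -0.17 ± 0.06 (adjusted p = 0.0412), that is, the LPS rise was smaller with JSH-23. This difference passed in 9 of the 21 other fits, and the range of adjusted p over them was 0.00885 to 0.158.

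Upstream of Casp4 at chr9:5308599-5308848 (plus strand), 3 overlapping matches to the κB consensus on both strands covered 11 bases, 93 to 83 bases before the start site. The window of the neighbouring Casp1 at chr9:5298267-5298516 (plus strand) is shown for comparison and held none. Capitals mark the κB match.
Casp4 upstream: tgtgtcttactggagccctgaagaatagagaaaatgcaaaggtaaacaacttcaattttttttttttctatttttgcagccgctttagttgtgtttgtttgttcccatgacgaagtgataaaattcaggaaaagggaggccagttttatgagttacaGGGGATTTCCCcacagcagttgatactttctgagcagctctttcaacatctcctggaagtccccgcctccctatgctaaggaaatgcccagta
Casp1 upstream: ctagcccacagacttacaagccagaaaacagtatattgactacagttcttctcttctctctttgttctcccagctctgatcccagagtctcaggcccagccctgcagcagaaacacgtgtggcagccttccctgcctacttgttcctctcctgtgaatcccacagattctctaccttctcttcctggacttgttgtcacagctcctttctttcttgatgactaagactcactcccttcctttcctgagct
The absence of a match says only that these letters are not in this window.

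Gsdmd, whose cleaved product forms the membrane pore, fell with JSH-23, and its LPS changes did not pass with TMM scaling. It measured 262, 268 and 270 CPM (269.9 in WT replicate 6) in WT, 256, 263 and 254 CPM in WTL, 180, 171 and 185 CPM in WT + JSH23, and 166, 174 and 178 CPM in WTL + JSH23. All 6 JSH-23 libraries lay below all 6 others, and LPS and no LPS overlapped on both sides. The JSH-23 change was -0.58 ± 0.04 without LPS (1.49-fold lower, adjusted p = 8.21e-11) and -0.58 ± 0.04 with LPS (1.49-fold lower, adjusted p = 7.53e-11). The LPS change was -0.05 without JSH-23 (95% interval -0.13 to 0.03, adjusted p = 0.259) and -0.05 with it (-0.13 to 0.03, adjusted p = 0.288). On the TPM scale these LPS values were -0.47 and -0.28 and passed, which is -0.17 and -0.10 relative to the median of all genes. With upper quartile scaling they were -0.13 (adjusted p = 0.00464) and -0.14 (adjusted p = 0.00558).

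Nek7, a kinase that binds NLRP3 and is needed for its assembly, fell with LPS while its partner rose, and JSH-23 without LPS lowered both. Levels were 156, 165 and 153 CPM in WT, 109, 110 and 105 CPM (109.7 in WTL replicate 5) in WTL, 141, 139 and 137 CPM in WT + JSH23, and 107, 114 and 103 CPM in WTL + JSH23. Both LPS groups lay below both unstimulated groups and overlapped each other. LPS lowered Nek7 by 0.55 ± 0.04 without JSH-23 (adjusted p = 2.32e-10) and by 0.37 ± 0.04 with it (adjusted p = 2.32e-07). The interaction of 0.18 ± 0.06 (adjusted p = 0.0395) passed in 9 of the 21 other fits (adjusted p from 0.0104 to 0.118). JSH-23 lowered Nek7 without LPS by 0.19 ± 0.04 (adjusted p = 0.00105), and with LPS the value was -0.0022 (95% interval -0.09 to 0.09, adjusted p = 0.974). As a ratio of TPM within a library, Nlrp3 to Nek7 was 0.725 ± 0.056 in WT, 7.45 ± 0.334 in WTL, 0.499 ± 0.041 in WT + JSH23 and 4.80 ± 0.391 in WTL + JSH23 (SD, n = 3).

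In the interaction 2 of the 9 genes were higher, Nlrc4 and Nek7 (9.54% of all genes), and 1 was lower, Casp4 (8.44%). Only Nlrc4 was left without WT replicate 4 or 5, WTL replicate 4 or 5, WT + JSH23 replicate 1 or 3, or WTL + JSH23 replicate 1. Among all genes with a passing interaction 53.1% were higher, against 39.8% in DESeq2 and 80.7% on the TPM scale, where the median of all genes was 0.12 higher than 0. The interaction of Pycard was 0.05, that of Casp1 0.05, that of Aim2 -0.08 and that of Gsdmd -0.0008, none of which passed.

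Compared per length, Gsdmd was the most abundant of the 9 in every group, at 439 ± 11.4 TPM in WT, 317 ± 5.02 in WTL, 277 ± 10.97 in WT + JSH23 and 227 ± 6.09 in WTL + JSH23. In WT it was followed by Casp1 (232 TPM), Casp4 (151) and Aim2 (136), the latter overlapping each other, then Pycard (89.5), Nek7 (59.3), Nlrp3 (42.9), Nlrc4 (11.1) and Nlrp1b (4.13). In WTL, Nlrp3 stood second at 238 TPM and overlapped Casp4 at 230 TPM, and both exceeded Casp1 at 198 TPM. In WTL + JSH23 the order was Gsdmd, Casp4 (190 TPM) and Casp1 (185 TPM), which overlapped, and Nlrp3 (163 TPM). Nlrc4 and Nlrp1b were the lowest in all 4 groups.

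**Figure D4:**
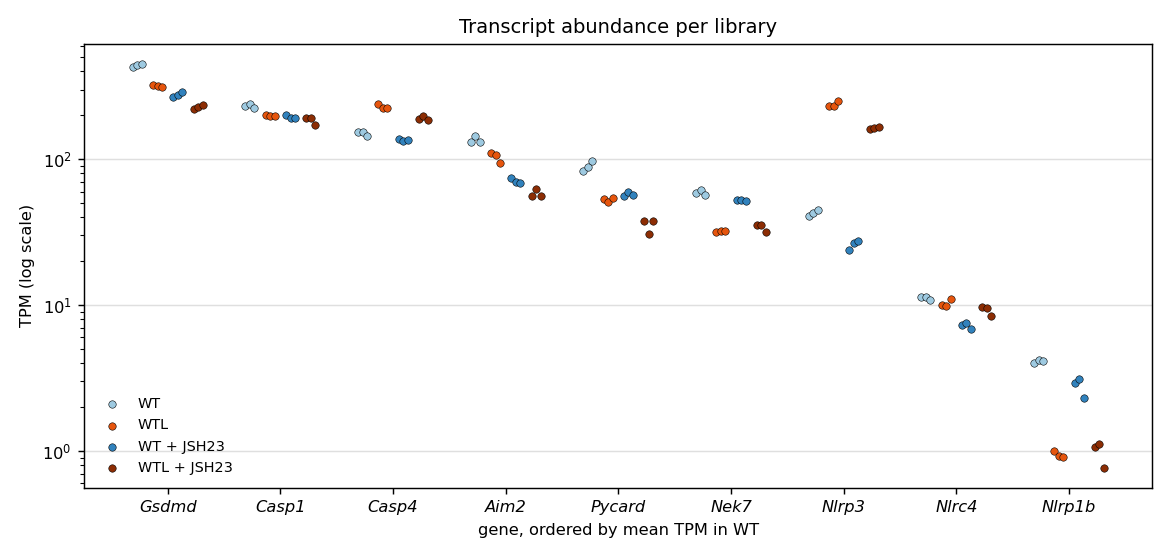
TPM (vertical axis, log scale) of the 9 genes in each library, with genes ordered by their mean in WT and colours giving the group. Gsdmd is the highest gene in every group, and Nlrp3 rises from seventh place in WT (42.9 TPM) to second in WTL (238 TPM).

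The ratio of Casp4 to Casp1 was 0.664, 0.642 and 0.640 in WT, 1.18, 1.14 and 1.15 in WTL, 0.693, 0.702 and 0.706 in WT + JSH23, and 0.994, 1.02 and 1.07 in WTL + JSH23. Casp4 transcripts thus outnumbered those of Casp1 in 5 of the 6 LPS libraries and in 0 of the 6 others. Pycard to Casp1 was 0.386 ± 0.037 in WT, 0.266 ± 0.009 in WTL, 0.296 ± 0.016 in WT + JSH23 and 0.192 ± 0.030 in WTL + JSH23. Gsdmd to Casp1 was 1.89 ± 0.081, 1.60 ± 0.003, 1.43 ± 0.087 and 1.23 ± 0.108 in the same order. The abundance-weighted transcript length estimated by RSEM shifts when isoforms change. For Casp1 it ran from 1529 to 1569 bases over all libraries, for Casp4 from 1225 to 1306, for Gsdmd from 1217 to 1336, and for Nlrp3 from 3541 to 3986, the lowest Nlrp3 value lying in WT.

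The other genes of the pathway, from a list of 37 symbols of which 34 were tested, were called by LPS at shares near those of all genes. LPS without JSH-23 raised 11 and lowered 12 (31.0% and 34.7% of all genes), and with JSH-23 it raised 10 and lowered 13 (27.4% and 27.1% of all genes). On the TPM scale 19 rather than 12 were lower without JSH-23. JSH-23 lowered 22 and raised 4 without LPS (22.1% and 18.8% of all genes), and lowered 24 and raised 3 with LPS (24.2% and 24.5% of all genes). Nlrp6, Nlrp12 and Trim31 were too low to be tested.

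**Figure D5:**
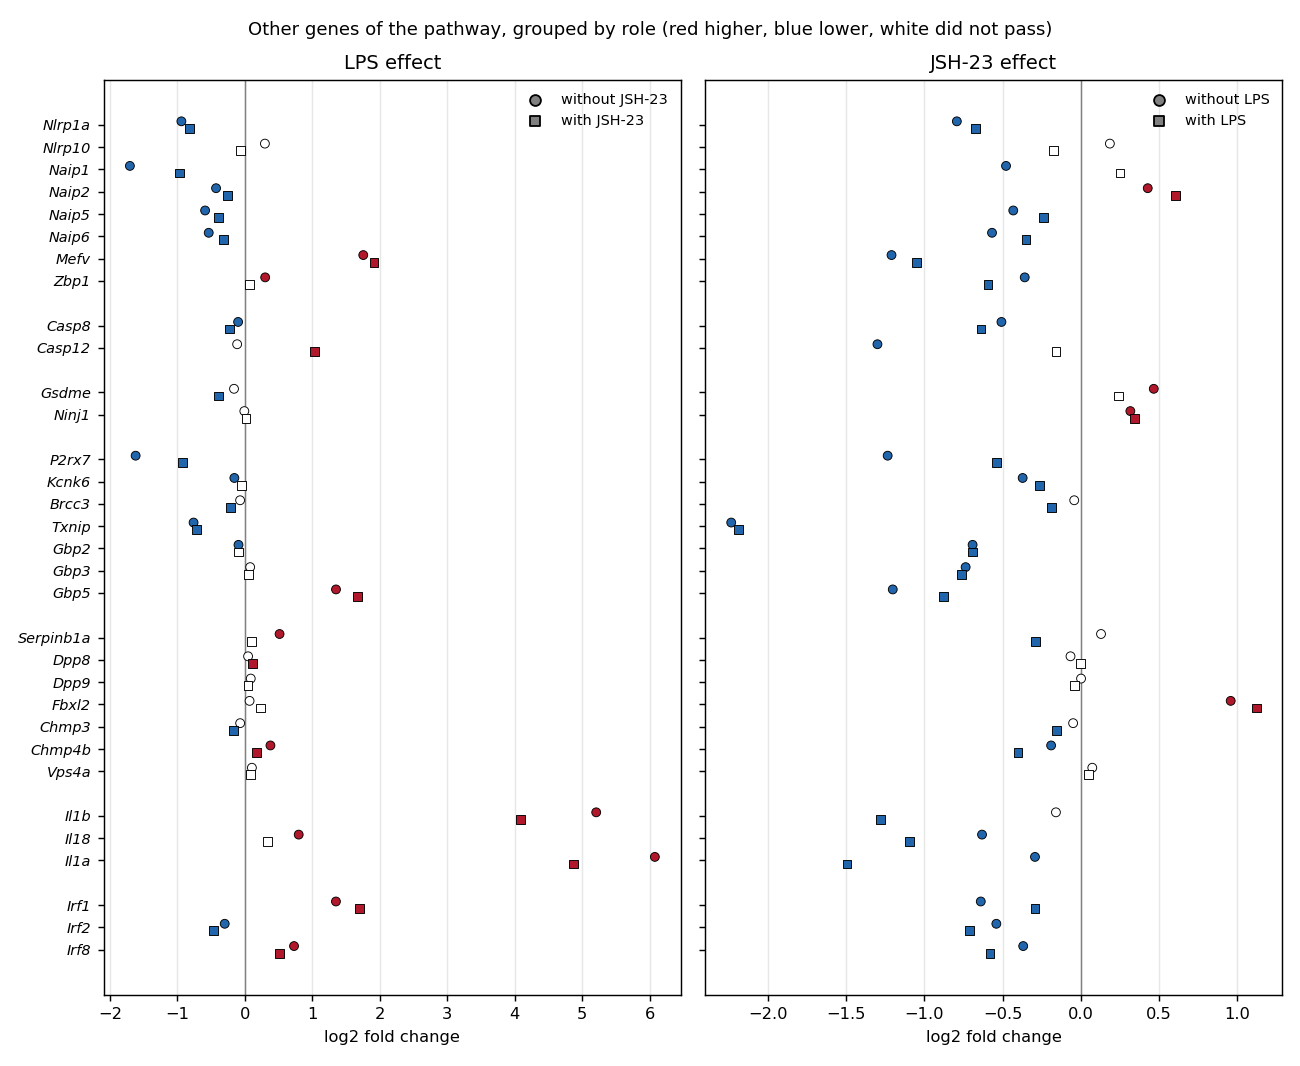
Log2 fold changes (horizontal axis) of 32 of the 34 tested genes of the pathway for LPS (left) and JSH-23 (right), grouped by role from sensors at the top to regulators of transcription at the bottom; circles are without and squares with the other treatment. Il1a and Il1b show the largest LPS rises (6.08 and 5.21), and of the genes drawn 20 are lower with JSH-23 without LPS and 22 with LPS.

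Among the further sensors and NAIP proteins, 5 of 8 fell and 2 rose with LPS, where 34.7% of all genes fell and 31.0% rose. Mefv, which encodes pyrin, rose from 86.4, 90.6 and 87.6 CPM in WT to 297, 297 and 299 CPM in WTL (log2 fold change 1.75 ± 0.07). JSH-23 lowered Mefv by 1.21 without LPS and by 1.05 with LPS, and its libraries did not overlap between groups. All 4 NAIP genes, whose products bind bacterial ligands for Nlrc4, fell with LPS, Naip1 by 1.71 and Naip2 by 0.43. With JSH-23 Naip2 rose by 0.43 without and 0.61 with LPS, while Naip6 fell by 0.57 and 0.35. The NAIP genes are near-identical paralogs, so reads can be shared between them.

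JSH-23 lowered Casp8, a caspase of cell death signalling, by 0.51 without and 0.64 with LPS. Its LPS value of -0.10 ± 0.04 (adjusted p = 0.0459) did not pass in 10 of 22 other fits. These were DESeq2 (adjusted p = 0.253), edgeR with DESeq2 size factors (0.187) or no filter (0.0658), and the fits without any 1 of the WT libraries, WTL replicate 5 or 6, or replicate 1 of either JSH-23 group (0.0537 to 0.183). Ninj1, which ruptures the plasma membrane after pore formation, rose with JSH-23 by 0.32 without LPS and 0.34 with LPS, opposite to Gsdmd. Its LPS values were -0.0088 and 0.015 and did not pass.

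Among genes acting upstream, 1 rose and 4 fell with LPS out of 7 (31.0% and 34.7% of all genes), and JSH-23 lowered 6 without LPS and 7 with LPS (22.1% and 24.2% of all genes). P2rx7, the ATP-gated channel whose opening triggers Nlrp3, had 48.7, 47.7 and 45.7 CPM in WT and 14.0, 15.6 and 16.8 CPM in WTL, and fell by 1.62 ± 0.07. JSH-23 without LPS lowered P2rx7 by 1.24, to a mean of 20.1 CPM in WT + JSH23. With JSH-23 the LPS fall of P2rx7 was 0.93, and the interaction of 0.69 passed (adjusted p = 7.57e-05). WTL + JSH23 had the lowest mean of P2rx7, 10.6 CPM. Txnip, a thioredoxin-binding protein linked to Nlrp3, had the largest JSH-23 fall of the list, 2.24 without and 2.19 with LPS. Gbp5, a guanylate-binding protein that acts on bacterial membranes, rose by 1.35 with LPS and fell by 1.20 with JSH-23 without LPS.

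The cytokines matured or released downstream had the largest LPS rises of the list. Il1b measured 86.3, 83.3 and 82.0 CPM in WT and 3210, 3230 and 2859 CPM in WTL. With JSH-23 it measured 73.4, 78.1 and 74.0 CPM without LPS and 1184, 1450 and 1191 CPM with LPS. WTL + JSH23 libraries lay below all WTL and above all unstimulated libraries. LPS raised it by 5.21 ± 0.07 in cells free of inhibitor and by 4.08 ± 0.07 after JSH-23, and the interaction of -1.12 ± 0.09 passed (adjusted p = 5.80e-08). Il1a, which is not cleaved by caspase-1 but is released in pyroptosis, had an interaction of -1.20 ± 0.11 (adjusted p = 2.24e-07). Nlrp3 and these cytokines are both counted as products of LPS priming, yet the interaction of Nlrp3 had an interval of -0.11 to 0.14, and the difference between the genes was not tested. Il18 rose by 0.80 with LPS, and JSH-23 lowered it by 0.63 without and 1.10 with LPS.

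Inhibitors and membrane repair genes gave 2 rises and 0 falls with LPS among 7 tested (31.0% and 34.7% of all genes). The rises were of Serpinb1a (0.51) and the ESCRT gene Chmp4b (0.38), neither of which passed on the TPM scale. JSH-23 raised 1 and lowered 1 without LPS (18.8% and 22.1% of all genes). With LPS it raised 1 and lowered 3 (24.5% and 24.2% of all genes). Fbxl2 rose by 0.96 without and 1.12 with LPS, and Chmp4b fell by 0.19 and 0.40. Serpinb1a fell by 0.29 with LPS, which did not pass on the TPM scale (adjusted p = 0.537), without WTL replicate 5 (0.0769) or without WTL + JSH23 replicate 1 (0.0644). Of the 3 regulators of transcription, Irf1 rose by 1.35 and Irf8 by 0.73 with LPS and Irf2, an activator of Gsdmd transcription, fell by 0.30. JSH-23 lowered all 3 in both settings (22.1% and 24.2% of all genes), Irf2 by 0.54 without and 0.71 with LPS.

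Markers of other cells moved with JSH-23 as well. Summed macrophage and monocyte markers were 1866 to 1934 TPM in WT and 1385 to 1416 TPM in WT + JSH23, and 2317 to 2366 TPM in WTL against 1911 to 1961 TPM in WTL + JSH23. Without LPS 7 of the 9 macrophage markers fell and 1 rose, and with LPS 8 of 9 fell. Cx3cr1 fell by 3.14 and 3.18 and Fcgr1 by 1.31 and 1.40, both chosen for mention after their values were seen. Neutrophil markers, of which 6 of 9 were tested, fell in 2 cases without LPS and in 6 with LPS. Of the 9 dendritic cell markers 4 fell and 3 rose without LPS, and 7 fell and 1 rose with LPS. For these marker counts the shares of all genes were 22.1% lower and 18.8% higher without LPS. With LPS they were 24.2% lower and 24.5% higher. The part of cell composition in the lower inflammasome transcripts was not tested.

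The genes whose pattern over the 12 libraries was most like that of a member were sought among 5209 protein-coding genes, by Pearson correlation of log2 CPM. The libraries share 4 group means, so that high values are common and describe the pattern only. For Nlrp3 they were Nfkbiz (r = 0.999), Mki67 (0.998) and Nfkbia (0.998), and for Casp4 Filip1l (0.999), Fam107b (0.998) and Marcksl1 (0.997). Closest to Nlrp1b was Arl5a (0.996), to Nlrc4 Rasgrp1 (0.985), to Aim2 Pdk3 (0.993), to Pycard Fes (0.994), to Casp1 Slc30a7 (0.970), to Gsdmd P2rx5 (0.991) and to Nek7 Gusb (0.993).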

How the data were processed

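Bulk RNA-seq of 12 BMDC libraries was used. Per the labels and the published methods, the authors trimmed reads with Trim Galore, aligned them to mm10 with STAR and estimated expression with RSEM; STAR 2.6.0c is named in the submitters' processing notes, and a different release in the published reporting summary; the GENCODE release is not given in the sources used here, and labels and methods name different RNA selection kits. The deposited expected counts are estimated read pairs per gene without scaling, and the deposited TPM values were computed by the authors per transcript length. The deposited length column (bases) is the abundance-weighted transcript length.

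Symbols and positions were matched without version to GENCODE M21 (55154 of 55335 identifiers). Expected counts were rounded and fitted with edgeR 4.0.16 in R 4.3.3 (filterByExpr, TMM, quasi-likelihood F-test, 1 mean per group, 12 libraries, 8 residual degrees of freedom), with Benjamini-Hochberg adjustment over 14357 genes. CPM is TMM-scaled. The main comparisons, the interaction, 10 other settings (other scalings, filters, DESeq2 1.42.0, limma 3.58.1 on TPM, replicate block, unrounded counts, 2 groups alone) and 12 fits leaving out 1 library each were run. No 2 libraries of a group agreed within counting noise. WTL + JSH23 replicate 3 stood furthest from its group, with a chi-square per degree of freedom of 8.18 and 9.11 against replicates 1 and 2. The other pairs of libraries within a group ran from 2.33 to 4.50.

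The members, lists and tests were chosen with earlier results of these data known. Named were the 9 members, at most 3 genes of each pathway role list that passed with the largest change in a comparison, and, for each member, the most correlated protein-coding genes of at least 10 CPM on average with no fractional count. Members of a list were also given a value outside this rule where the other setting was set beside it. Some items of the lists are not reported here. Promoter windows are from RefSeq (GRCm38.p6).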

Additional observations from a re-analysis of the deposited data

Results flagged for a closer look

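In edgeR's interaction test, the LPS change of 3 of the 9 genes differed between cultures with and without JSH-23. The difference was 0.40 for Nlrc4, 0.18 for Nek7 and -0.17 for Casp4 on the log2 scale. For Nlrc4 the LPS rise was larger with JSH-23, for Nek7 the LPS fall was smaller, and for Casp4 the rise was smaller. The call of Nlrc4 held in all 21 other fits, whereas those of Nek7 and Casp4 each held in 9 and were lost in 12.

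Of the other genes of the pathway, 12 of 34 met the same test. The difference was 0.73 for Naip1, 0.18 for Naip2, 0.69 for P2rx7, 0.32 for Gbp5 and 0.35 for Irf1. It was -0.24 for Zbp1, -0.42 for Serpinb1a, -0.21 for Chmp4b, -0.17 for Irf2 and -0.21 for Irf8. The cytokines Il1b (-1.12) and Il1a (-1.20) had the largest differences. Over 21 other fits each, the call of Irf2 was lost in 13, that of Serpinb1a in 12, that of Naip2 in 6, that of Irf8 in 3 and that of Chmp4b in 2, with highest adjusted p of 0.612, 0.598, 0.0735, 0.361 and 0.31. For Irf2, Serpinb1a and Naip2 leaving out 1 library ended the call in many of these fits, and for Irf8 it did so without WTL replicate 5 (adjusted p = 0.0565). The other 7 calls held in all 21. The list gave 4 to 8 higher and 3 to 8 lower calls over these fits, against 5 and 7 in the test as reported. Among all genes 9.54% passed the interaction test upward and 8.44% downward.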

How the results depend on the processing

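All 9 JSH-23 falls without LPS passed in each of 21 other fits, and of the 7 with LPS all but those of Nlrc4 and Casp1 on the TPM scale did. LPS with JSH-23 gave 1 member above 2-fold on the log2(TPM + 1) scale in place of 2, and the interaction gave 1 to 3 passing members when 1 library was left out. TPM reversed the LPS values of Nlrc4 (-0.10 and -0.11 with pseudocounts 1 and 0.1), Aim2 (-0.40 with both) and Casp1 (-0.23 with both), and with JSH-23 those of Casp1 (-0.067 with both), Chmp4b (-0.036 with both) and Dpp8 (-0.053 and -0.054). Upper quartile scaling gave -0.055 for Aim2. These TPM values have a fixed sum per library and carry no TMM factor. The remaining reversals were of values near 0. For JSH-23 with LPS, Nek7 was 0.012 (upper quartile), 0.0009 (no filter), 0.0015 (mean of 1 CPM), 0.087 and 0.089 (TPM) and 0.0066 (2 groups alone), and ran from -0.042 to 0.030 without 1 library, while Nlrp1b was 0.021 and 0.031 with TPM and -0.15 to 0.087 without 1 library. In the interaction, Nlrp3 was -0.0089 (DESeq2 size factors) and -0.0085 (DESeq2) and -0.028 to 0.051 without 1 library. Gsdmd was 0.0048 (no filter), 0.0069 (mean of 1 CPM), 0.19 with both TPM fits (adjusted p = 0.0287 and 0.0294 in limma) and -0.031 to 0.031 without 1 library, and Aim2 was 0.12 and 0.11 with TPM. The cause of these changes was not tested.

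Same-numbered libraries correlated at 0.0142 to 0.0614 in their deviations from the group means. Between WT and WTL, same-numbered values were 0.0213, 0.0556 and 0.0614, and all values of unlike numbers were negative. Deviations within a group cancel out, so positive values for like numbers draw those of unlike numbers downward. The negative values are thus no separate sign of pairing. WT + JSH23 replicate 1 and WTL + JSH23 replicate 2 correlated better with another number than with their own. Whether the numbers mark pairs is thus not settled. The main fit had no replicate block because the methods of the study describe none. With the replicate block, 7, 7 and 4 members passed for LPS without JSH-23, LPS with JSH-23 and the interaction (6, 7 and 3 without it), Casp1 (adjusted p = 0.0365) and the interaction of Nlrp1b (0.0316) being added. JSH-23 comparisons share no replicate number and were not blocked. With 3 libraries a group and 50 to 365 counts, the intervals of Nlrp1b were the widest of the set.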
